A study of Mus musculus with 4 samples.

Results

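The galectin and S100 genes described here are 8 of the 32285 gene rows in each count matrix: *Lgals1*, *Lgals3* and *Lgals9* of the galectins, and *S100a6*, *S100a10*, *S100a11*, *S100a13* and *S100a16* of the S100 proteins. *Lgals3* and *Lgals9* were taken as the family of *Lgals1*, and the 5 S100 genes as a separate protein family set beside it. They were chosen by the rise of *Lgals1* UMIs in endothelial cells of *Ets1* eKO hearts. That rise is therefore given as a description with no test, and the question asked of the data was whether the other members, or other cell types, showed it too.

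Galectins are small lectins that bind beta-galactosides on glycoproteins at the cell surface and in the matrix. *Lgals1* encodes a galectin with a single type of carbohydrate-binding domain that works as a dimer and is known in endothelium for its ties to angiogenesis. *Lgals3* encodes the chimera-type galectin common in macrophages, and *Lgals9* a galectin with a pair of carbohydrate-binding domains. S100 proteins are small EF-hand proteins that mostly form dimers and, on binding calcium, take up partners such as annexins; S100A10 has lost calcium binding and sits in a complex with annexin A2, while S100A11 binds annexin A1.

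Single cells of E14.5 mouse ventricles were sequenced from 2 control libraries (Tie2Cre;*Ets1* fl/+) and 2 *Ets1* eKO libraries (Tie2Cre;*Ets1* fl/fl), each pooled from 3 embryos. The controls thus carry Tie2Cre and 1 floxed allele as well. Tie2Cre acts in endothelium and endocardium, and also in blood cells and in cushion mesenchyme that comes from endocardium. The matrices held 124140739 and 76931208 UMIs (unique molecular identifiers, 1 per captured RNA molecule) in the first and second control library, and 95131419 and 102872196 in the first and second eKO library. Values for single libraries are listed below in that order.

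The libraries also differed in depth and sex. *Ets1* eKO replicate 2 was the shallowest, with a median of 5336 UMIs per kept cell against 8304 to 8777.5 in the others. By *Xist* and Y-linked UMIs, the female share of mEndo-like cells with a call was 0%, 48.9%, 69.0% and 99.9%. Each pair of libraries shared between 19 and 47 cell barcodes, at most 0.44% of the smaller library.

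Cells were placed in classes by marker genes, cell by cell, and each class carries "-like" in its name since it is a range on a score. mEndo-like cells (mural endocardium) numbered 967, 717, 829 and 1382, cvEC-like cells (coronary vessel endothelium) 362, 205, 276 and 513, and vEndo-like cells (valve endocardium) 112, 103, 114 and 123. Of all 37913 kept cells, 2335 (6.16%) lay within 10% of a limit on the marker lists. Among mEndo-like cells these were 22, 9, 20 and 45. The median over mEndo-like cells of the summed cardiomyocyte list was 857, 490, 832 and 1063 CPM (counts per 1000000 UMIs of the class), that of the fibroblast list 444, 367, 766 and 697 CPM, higher in both *Ets1* eKO libraries, and that of the immune, epicardial and mural lists 0 in all 4 libraries.

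*Ets1* itself stood in mEndo-like cells at 281, 264, 123 and 96.6 CPM. Both *Ets1* eKO libraries lay below both controls, with a log2 fold change of -1.27 (SE 0.14, edgeR adjusted p = 0.00147). The log2 fold change was -1.18 in cvEC-like cells (edgeR adjusted p = 0.00696) and -1.27 in vEndo-like cells (edgeR adjusted p = 0.00488). Which exons the floxed allele loses is not given in the sources used here, so UMIs from the 3′ end may include transcripts of a recombined allele. In fibroblast-like cells, some of which descend from endocardium, *Ets1* averaged 86.5 ± 6.39 CPM in control and 54.7 ± 0.710 CPM in eKO hearts (SD, n = 2; log2 fold change -0.57, edgeR adjusted p = 0.135).

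*Lgals1* (ENSMUSG00000068220, chromosome 15 from 78926725 to 78930465, GRCm38) is a gene of 3.7 kb. In mEndo-like cells it stood at 242, 310, 853 and 922 CPM. The *Ets1* eKO libraries were both high and did not overlap the controls, and the mean of the controls was 276 ± 47.9 CPM (SD, n = 2) against 887 ± 48.7 CPM (SD, n = 2). The fold fitted by edgeR after TMM scaling was 3.32, a log2 fold change of 1.73 (SE 0.16), rank 69 from the highest of 12831 genes. The values in cvEC-like cells were 241, 267, 865 and 922 CPM. There, too, both *Ets1* eKO libraries were high, at a fitted fold of 3.73 (log2 1.90, SE 0.16). In vEndo-like cells *Lgals1* stood at 325, 391, 605 and 541 CPM, with groups that did not overlap but lay closer, at a fitted fold of 1.65 (log2 0.72, SE 0.17).

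The *Lgals1* effect in mEndo-like cells exceeded that in vEndo-like cells by 1.03 (SE 0.13) on the log2 scale, and that in cvEC-like cells exceeded it by 1.16 (SE 0.13). Between mEndo-like and cvEC-like cells it differed by -0.12 (SE 0.10). All 3 values are descriptions, since they hold the rise that chose the members.

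Outside endothelium, *Lgals1* was read from the edgeR fit over all genes. Fibroblast-like cells had its high level, 2366, 2459, 2502 and 2496 CPM, with a log2 fold change of 0.14 (edgeR adjusted p = 0.768). Cardiomyocyte-like cells stood at 340, 330, 415 and 428 CPM. The groups did not overlap there, but the log2 fold change of 0.45 (SE 0.14, edgeR adjusted p = 0.393) missed 0.05; without *Ets1* eKO replicate 1 it was 0.51 (edgeR adjusted p = 0.0179), in a fit that called 2529 of 16389 genes against 1 of 15937, and over the alternatives it ran from 0.33 to 0.57 (adjusted p up to 0.973 in edgeR). In epicardial-like cells the CPM values had the other order, 561, 726, 393 and 384 CPM (log2 fold change -0.66, edgeR adjusted p = 0.519). The mean thinned share of epicardial-like cells with *Lgals1* was instead higher in *Ets1* eKO, 46.4% in control and 53.4% in eKO hearts (exact permutation p = 0.33). This class held 50, 61, 85 and 124 cells. Its fibroblast list summed to 5456, 5233, 4370 and 4452 CPM, and its epicardial list to 3203, 3383, 2963 and 3033 CPM. Both lists were lower in both *Ets1* eKO libraries, and their part in the result was not tested. Immune-like cells, a class in which Tie2Cre also acts, held 609, 968, 736 and 799 CPM, so that the groups overlapped (log2 fold change 0.0052, edgeR adjusted p = 0.998). *Ets1* had only 17, 6, 13 and 9 UMIs in that class, with groups that overlapped (log2 fold change -0.51, edgeR adjusted p = 0.934). These values do not show a loss of *Ets1* there.

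Cushion-like cells, a subset of the fibroblast-like class that includes descendants of endocardium, gave 2500, 2286, 2413 and 2262 CPM of *Lgals1* (log2 fold change 0.040, edgeR adjusted p = 0.969). Tcf21-type fibroblasts gave 2287, 2501, 2576 and 2688 CPM (log2 fold change 0.22, edgeR adjusted p = 0.751). Mural-like cells were not tested and stood at 2279, 2233, 2700 and 2683 CPM.

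Over all 4 libraries, the order of the classes for *Lgals1* ran from mural-like (2474 ± 252 CPM, SD, n = 4) and fibroblast-like cells (2456 ± 63.0 CPM), which overlapped, down to cardiomyocyte-like cells (378 ± 50.2 CPM). Immune-like cells came next after the leading pair and lay apart from it. From immune-like down to cardiomyocyte-like cells each class overlapped its neighbour, and in the controls alone cvEC-like (254 CPM) and mEndo-like cells (276 CPM) were the lowest of the 8 classes. The mEndo-like and cvEC-like levels of *Ets1* eKO lay in the range of immune-like cells (609 to 968 CPM) and below every fibroblast-like value.

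**Figure D1:**
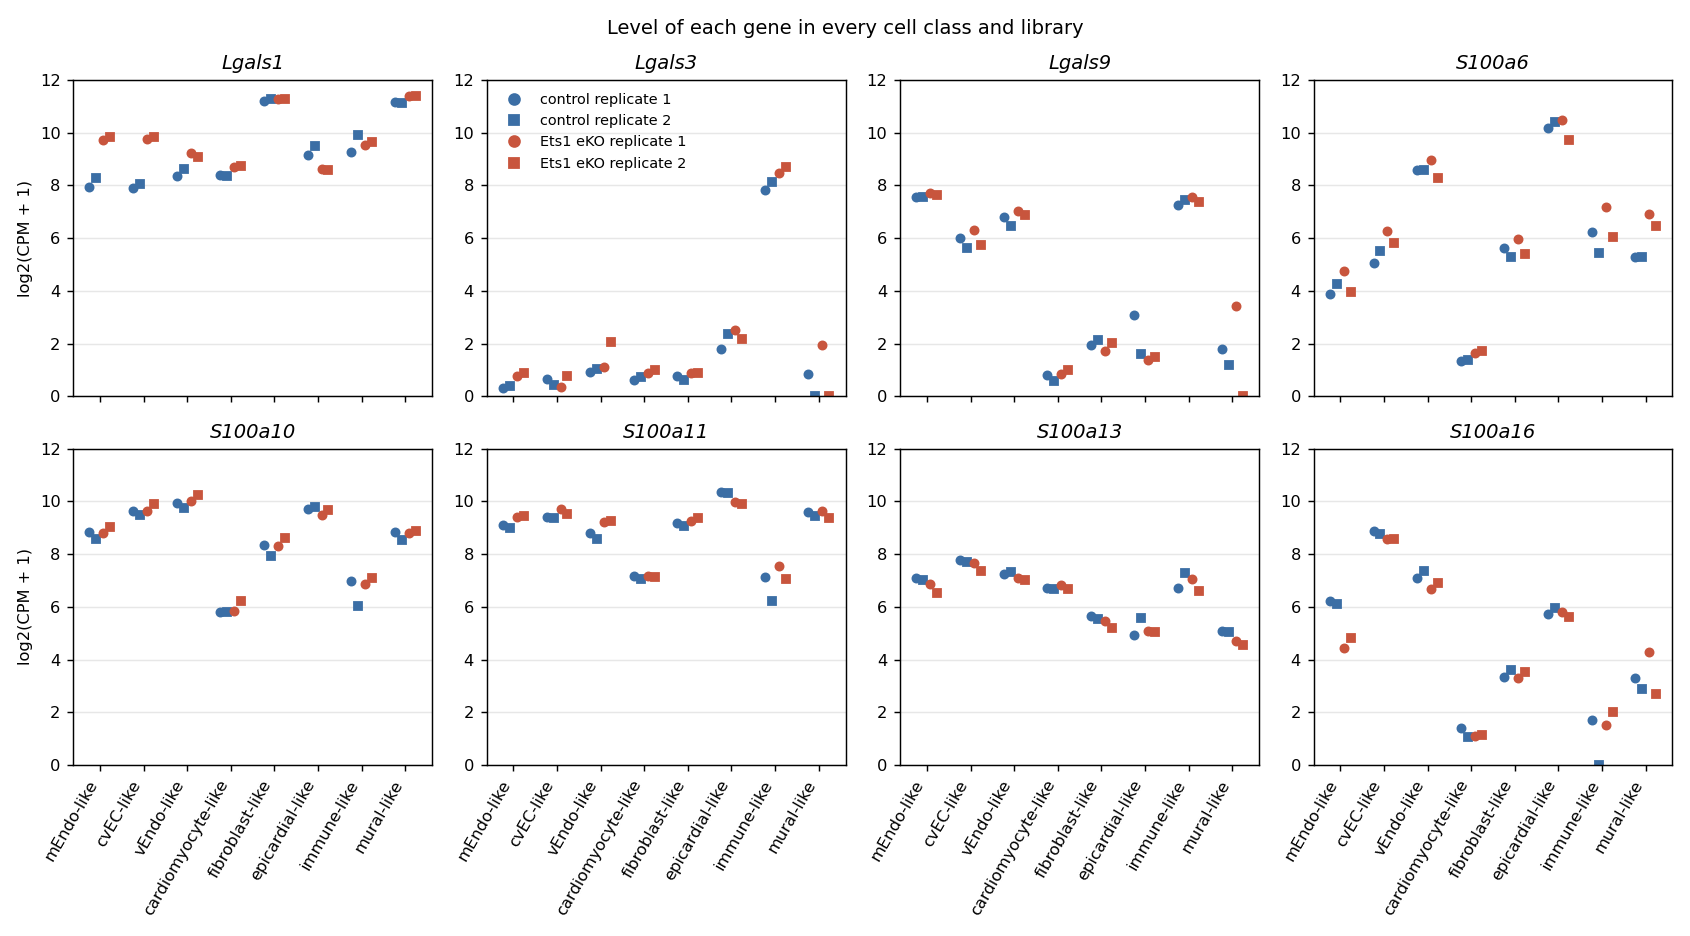
Level of the 8 genes, as log2(CPM + 1), in 8 cell classes, with 1 point per library (blue: control, red: *Ets1* eKO; circle: replicate 1, square: replicate 2). *Lgals1* lies between 241 and 310 CPM in control mEndo-like and cvEC-like cells and between 853 and 922 CPM in *Ets1* eKO, while *S100a16* in mEndo-like cells goes the other way.

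Values of other kinds moved with the groups in these cells. The 8 genes of the fibroblast list summed to 594, 528, 886 and 824 CPM in mEndo-like cells, higher in both *Ets1* eKO libraries, with *Col3a1* its most abundant gene and none of the 8 at 0. In cvEC-like cells the same list summed to 66.2, 39.9, 41.9 and 61.3 CPM, with groups that overlapped. Mitochondrial UMIs were 3.91%, 4.05%, 3.06% and 3.18% of mEndo-like UMIs, and ribosomal protein UMIs 16.3%, 17.1%, 18.9% and 17.4%. The mural list summed to 21.3, 24.1, 45.0 and 40.5 CPM in mEndo-like cells and the cardiomyocyte list to 948, 560, 968 and 1217 CPM, both higher in both *Ets1* eKO libraries, and the epicardial list to 7.29, 11.3, 7.12 and 6.41 CPM, lower in both. The part of these values in the result was not tested. Genes shorter than 20 kb had a median log2 fold change of 0.11 in mEndo-like cells and of 0.12 in cvEC-like cells, against -0.15 in both for genes of 100 kb and over. In vEndo-like cells these medians were 0.13 and -0.19.

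The share of cells with a UMI of *Lgals1* was taken after thinning each cell to 2000 UMIs, since depth differs. In mEndo-like cells it was 267 of 954 (28.0%, exact 95% interval 25.2% to 31.0%) and 240 of 703 (34.1%, 30.6% to 37.8%) in control, then 516 of 813 (63.5%, 60.1% to 66.8%) and 961 of 1331 (72.2%, 69.7% to 74.6%) in *Ets1* eKO. Cells with at least 5 UMIs made up 0.629%, 0.853%, 8.36% and 7.14%. The median cell went from 0 UMIs in both controls to 1 UMI in both *Ets1* eKO libraries, so the difference was spread over much of the class. The paper reports mural endocardial subclusters made up mainly of either control or *Ets1* eKO cells. These shares were not divided by such subclusters. Unthinned shares were 57.5%, 64.9%, 83.1% and 84.9%, at median depths of 6937, 7374, 7078 and 4456 UMIs. Thinning left out 13, 14, 16 and 51 cells.

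In cvEC-like cells the thinned shares with *Lgals1* were 34.9%, 32.5%, 67.4% and 75.9%, and in vEndo-like cells 35.7%, 40.2%, 50.4% and 55.1%. Thinning left out 7, 5, 6 and 15 cvEC-like and 0, 1, 1 and 5 vEndo-like cells. Unthinned, they were 71.8%, 67.8%, 93.8% and 91.03% in cvEC-like cells and 72.3%, 71.8%, 78.1% and 69.9% in vEndo-like cells. No class examined lacked *Lgals1*, so none gives its background from free RNA. The lowest thinned share of any library and class was the 28.0% of mEndo-like cells in control replicate 1. With 2 libraries against 2, the smallest p an exact permutation test can give is 0.33.

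**Figure D2:**
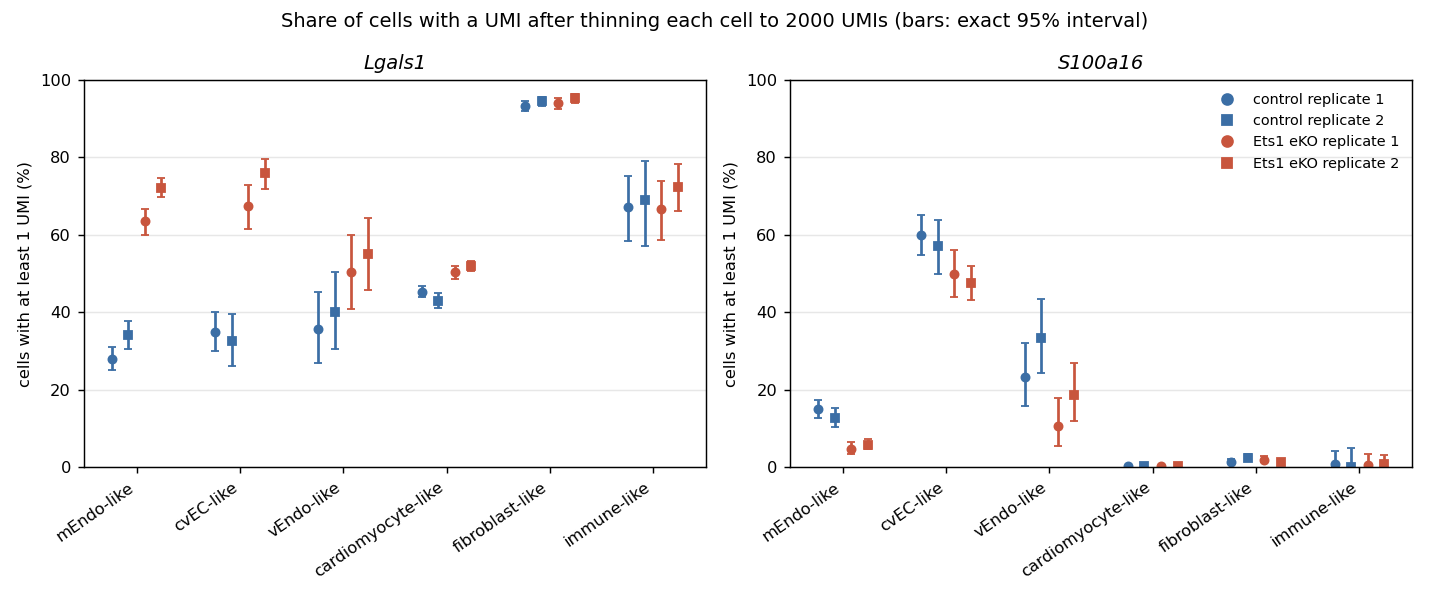
Percent of cells with at least 1 UMI of *Lgals1* (left) and *S100a16* (right) after thinning to 2000 UMIs, per class and library, with exact 95% binomial intervals that cover counting error only. For *Lgals1* the *Ets1* eKO libraries of mEndo-like cells lie at 63.5% and 72.2% and the controls at 28.0% and 34.1%; for *S100a16* the mEndo-like shares are 4.80% and 5.79% against 15.0% and 12.7%.

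Male and female cells of a library were also read apart, as parts of the same libraries and not as further replicates. In mEndo-like cells of control replicate 2, *Lgals1* stood at 272 CPM in 321 male and 334 CPM in 307 female cells, and in *Ets1* eKO replicate 1 at 904 CPM in 221 male and 834 CPM in 493 female cells. In cvEC-like cells the male parts of these libraries held 224 and 849 CPM and the female parts 291 and 877 CPM. In vEndo-like cells they held 311 and 416 CPM (male) and 454 and 707 CPM (female), so that the female control part lay above the male *Ets1* eKO part. A fit with sex as a term, which took parts of 1 library as separate units, is given among the alternatives. The effect of sex itself was not tested.

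Cells with and without a UMI of the cycling list were also read apart. Without cycling UMIs, mEndo-like cells held 201, 220, 683 and 785 CPM of *Lgals1*, and with them 273, 388, 976 and 1024 CPM. In both kinds of cell the *Ets1* eKO libraries were well above the controls.

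**Figure D3:**
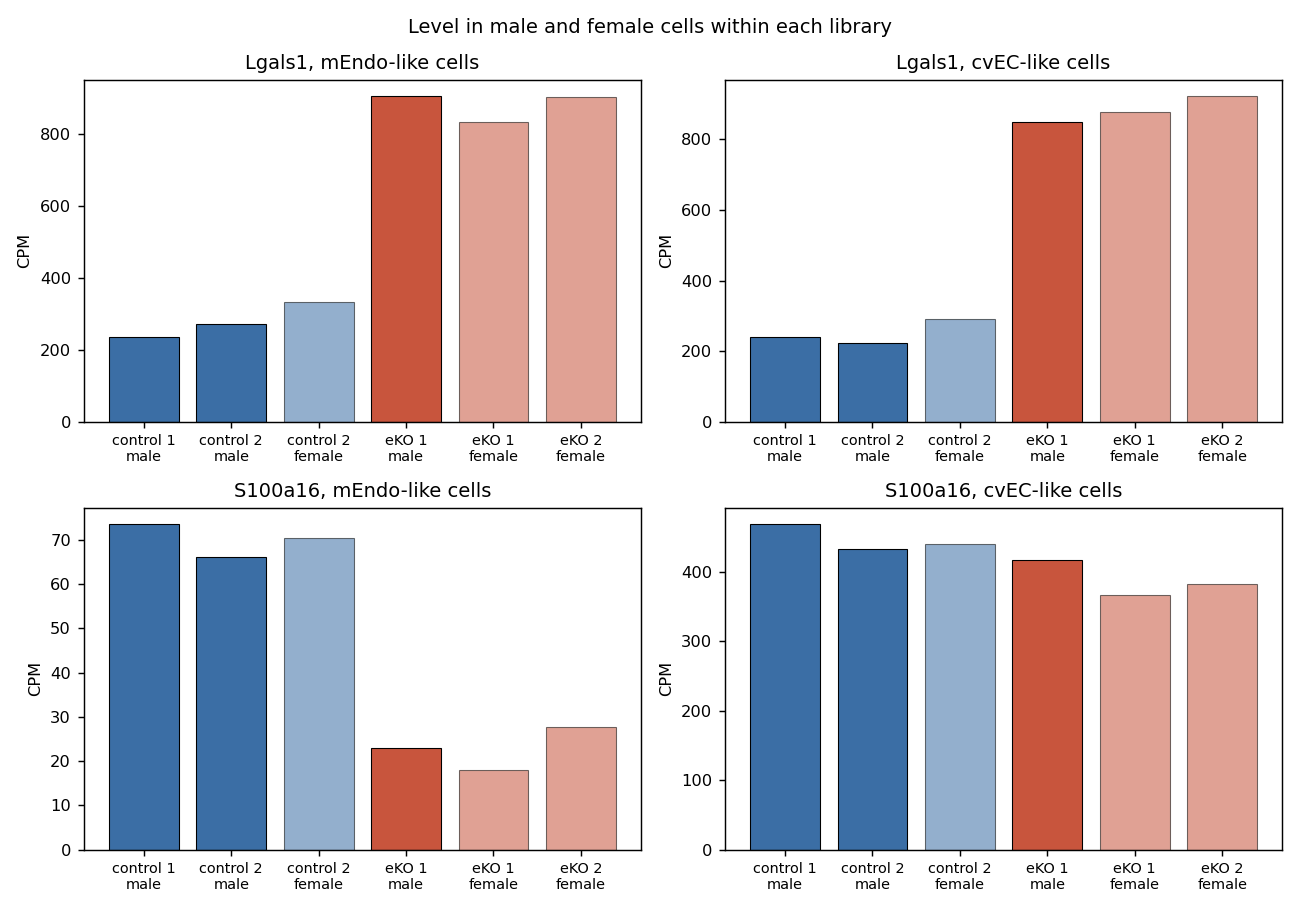
Level in CPM of *Lgals1* (top) and *S100a16* (bottom) in mEndo-like and cvEC-like cells, split into male and female cells of each library with at least 20 cells a part; bars start at 0 and each is 1 part, with no error. *Ets1* eKO parts of either sex hold 834 to 904 CPM of *Lgals1* in mEndo-like cells, and control parts 236 to 334 CPM.

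Of the other galectin members, *Lgals9* did not pass the test in endothelium with all libraries, and *Lgals3* was too low to be tested there. *Lgals3* was at the floor in endothelium, with 2, 2, 5 and 6 UMIs in mEndo-like cells, and passed the filter on low counts in none of the 3 endothelial classes. It was an immune-like gene in these hearts, at 228, 282, 353 and 410 CPM there against at most 4.75 CPM in any library of the other 7 classes. There the *Ets1* eKO values both exceeded the controls, with a log2 fold change of 0.63 (SE 0.21, edgeR adjusted p = 0.811). The thinned share of immune-like cells with *Lgals3* was 20.3%, 16.2%, 32.1% and 29.4% (exact permutation p = 0.33), against 0.064% to 0.169% in cardiomyocyte-like cells, which should lack it, at median depths of 7707 to 12525.5 UMIs in cardiomyocyte-like and 3760 to 6838 UMIs in immune-like cells. Unthinned, the immune-like shares were 35.6%, 34.9%, 46.6% and 39.7%, and thinning left out 7, 9, 18 and 34 of these cells.

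*Lgals9* (ENSMUSG00000001123) was well measured in endothelium. It stood at 188, 186, 211 and 196 CPM in mEndo-like cells, with a log2 fold change of 0.17 (SE 0.12, edgeR adjusted p = 0.443). Its order of classes was led by mEndo-like (195 ± 11.5 CPM, SD, n = 4) and immune-like cells (170 ± 16.4 CPM), which overlapped, then vEndo-like cells (110 CPM) and cvEC-like cells (60.6 CPM), each apart from the next. The remaining 4 classes were at 3.40 CPM or less. In cvEC-like cells the log2 fold change was 0.28 (edgeR adjusted p = 0.553) and in vEndo-like cells 0.35 (edgeR adjusted p = 0.557); without *Ets1* eKO replicate 2 the value in cvEC-like cells was 0.55 (edgeR adjusted p = 0.0326), without *Ets1* eKO replicate 1 it was -0.031 and without cycling cells -0.040.

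Among the S100 members, *S100a16* (ENSMUSG00000074457, chromosome 3 from 90537254 to 90543151, GRCm38) fell. It stood in mEndo-like cells at 74.2, 67.8, 20.6 and 26.9 CPM, from 600, 425, 142 and 193 UMIs. Both *Ets1* eKO libraries were low and apart from the controls. The means were 71.0 ± 4.47 and 23.8 ± 4.43 CPM (SD, n = 2). The fitted fold, control over eKO, was 2.88, a log2 fold change of -1.53 (SE 0.16, edgeR adjusted p = 0.00112). S100A16 is a widely expressed member of the family.

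In cvEC-like cells, where *S100a16* was highest, its level was 473, 437, 385 and 385 CPM. The *Ets1* eKO libraries lay below the controls by little, with a log2 fold change of -0.16 (SE 0.15, edgeR adjusted p = 0.674). vEndo-like cells held 137, 163, 101 and 120 CPM (log2 fold change -0.41, SE 0.19, edgeR adjusted p = 0.472). With the stricter gate, which left 23 to 24 cells a library, the log2 fold change there turned to 0.43. Across classes cvEC-like cells (420 ± 43.0 CPM, SD, n = 4) came first, then vEndo-like cells (130 ± 26.2 CPM). Epicardial-like (54.4 ± 5.78 CPM) and mEndo-like cells (47.4 ± 27.5 CPM) came next and overlapped, but in the controls alone mEndo-like cells (mean 71.0 CPM) lay above epicardial-like cells (mean 57.0 CPM) without overlap. Fibroblast-like and mural-like cells stood at 9.93 and 9.81 CPM, and cardiomyocyte-like cells at 1.27 CPM.

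The difference between classes was tested itself. The effect on *S100a16* in mEndo-like cells was lower than that in cvEC-like cells by -1.34 (SE 0.13, edgeR adjusted p = 6.6e-05), a comparison in which 142 of 12941 genes (1.10%) differed. Against vEndo-like cells the difference was -1.13 (SE 0.20, edgeR adjusted p = 0.00307), with 125 of 12590 genes (0.993%) called. Against cardiomyocyte-like cells it was -1.40 (SE 0.24, edgeR adjusted p = 0.00318; 1.69% of genes called) and against fibroblast-like cells -1.51 (SE 0.21, edgeR adjusted p = 0.00198; 1.72% of genes called). Both of these classes hold little *S100a16*, so that part of its UMIs there may be background RNA. Of the 6 members read in the 3 endothelial pairs, *S100a16* was the 1 whose effect differed in the pairs with mEndo-like cells.

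The share of mEndo-like cells with a UMI of *S100a16* after thinning was 15.0%, 12.7%, 4.80% and 5.79%, a difference of -8.53 percentage points between the means (exact permutation test, two-sided, p = 0.33, the smallest possible). Unthinned, it was 39.4%, 35.01%, 14.2% and 11.9%. The mean thinned share was lower in *Ets1* eKO in the other endothelial classes too. It was 58.5% in control and 48.8% in eKO for cvEC-like cells (difference -9.71 points, exact permutation p = 0.33), and 28.3% and 14.6% for vEndo-like cells (difference -13.6 points, exact permutation p = 0.33). Unthinned shares were 96.1%, 94.1%, 88.8% and 80.1% in cvEC-like cells and 54.5%, 66.02%, 35.97% and 37.4% in vEndo-like cells. Cardiomyocyte-like cells, which have little *S100a16*, held a UMI in 0.225% to 0.256% of thinned cells at median depths of 7707 to 12525.5 UMIs. The shares in mEndo-like cells of *Ets1* eKO were thus above this background.

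By sex, *S100a16* in mEndo-like cells was as follows. Male cells held 66.3 CPM in control replicate 2 and 22.9 CPM in *Ets1* eKO replicate 1, and female cells 70.5 and 18.0 CPM. In cvEC-like cells the male parts held 433 and 417 CPM and the female parts 440 and 366 CPM.

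Promoter sequences from RefSeq (GRCm38.p6) matched 6 of the 8 members. For *S100a16*, the 250 bases before each of its 2 listed starts are shown, 5′ to 3′ on the + strand, with GGAA or its reverse complement TTCC in capitals. The first lies at chr3:90537004-90537253, just before the annotated gene, and the second at chr3:90540896-90541145, inside it.
S100a16 first start: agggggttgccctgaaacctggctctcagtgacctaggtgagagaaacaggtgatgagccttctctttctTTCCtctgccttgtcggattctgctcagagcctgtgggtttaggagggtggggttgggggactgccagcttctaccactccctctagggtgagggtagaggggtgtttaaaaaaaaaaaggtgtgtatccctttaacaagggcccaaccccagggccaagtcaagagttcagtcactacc
S100a16 second start: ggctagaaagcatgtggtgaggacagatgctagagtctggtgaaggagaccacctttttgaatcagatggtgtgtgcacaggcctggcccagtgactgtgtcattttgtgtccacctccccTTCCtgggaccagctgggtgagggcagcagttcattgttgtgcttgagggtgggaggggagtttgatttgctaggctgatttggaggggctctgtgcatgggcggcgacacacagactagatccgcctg
Each held 1 match, on the reverse strand. Of 32851 promoter windows of this length, 93.4% hold GGAA on either strand, with a median of 3 matches. The longer CCGGAA, which contains GGAA, is in 12.0% of them and in neither window of *S100a16*. A match describes the letters and is not a binding site.

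*S100a16* lies in the cluster of S100 genes on chromosome 3 with *S100a13* (12.7 kb away) and *S100a6* (69.7 kb away), while *S100a10* and *S100a11* lie farther along the same chromosome. Of 13 gene rows within 100 kb of *S100a16*, 7 were tested in mEndo-like cells, with log2 fold changes from -0.31 to 0.37. None of the 7 passed in edgeR or DESeq2, and 1 had an unadjusted p under 0.05. Within 100 kb of *Lgals1*, 7 genes were tested in mEndo-like cells, from -0.33 to 0.59, of which edgeR and DESeq2 called 0 and 0 had an unadjusted p under 0.05. In cvEC-like cells 6 were tested, from -0.30 to 0.84, of which edgeR and DESeq2 called 0 and 2 had an unadjusted p under 0.05. Around *S100a16*, 7 were tested in cvEC-like cells, of which edgeR called 1, *S100a6*, and DESeq2 0.

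*S100a6* (ENSMUSG00000001025) marked epicardial-like (1197 ± 256 CPM, SD, n = 4) and vEndo-like cells (392 ± 82.5 CPM), each apart from the next class. In cvEC-like cells it stood at 32.0, 44.2, 75.8 and 55.6 CPM, from 162, 133, 264 and 236 UMIs. Both *Ets1* eKO libraries were above both controls, and its log2 fold change of 0.88 (SE 0.19, edgeR adjusted p = 0.0434) was past the threshold. The call is not firm: without control replicate 1 the log2 fold change was 0.66 (edgeR adjusted p = 0.327), and DESeq2 gave an adjusted p of 0.0902. Over all 14 alternatives for this value, most of them in edgeR, the adjusted p ran from 6.02e-08 to 0.881. The thinned share was 5.63%, 5.0%, 11.1% and 7.83% (exact permutation p = 0.33; 7, 5, 6 and 15 cells left out), against 0.299% to 0.525% in cardiomyocyte-like cells, which have little *S100a6*. Median depths were 6266 to 11939 UMIs in cvEC-like and 7707 to 12525.5 UMIs in cardiomyocyte-like cells. The shares were with all UMIs 24.9%, 27.3%, 32.2% and 19.7%, where the groups overlapped. Female cvEC-like cells held 45.8 CPM of *S100a6* in control replicate 2, and 51.1 and 55.7 CPM in *Ets1* eKO replicates 1 and 2. Male cells held 31.8 and 41.9 CPM in control replicates 1 and 2, and 92.2 CPM in *Ets1* eKO replicate 1. Cells without a cycling UMI held 51.3, 58.9, 113 and 37.1 CPM, where the groups overlapped. Cells with such a UMI held 29.6, 42.5, 68.6 and 58.35 CPM. In cvEC-like cells mitochondrial UMIs were 2.55%, 2.63%, 2.03% and 2.16%, the mural list 131, 121, 115 and 111 CPM and the immune list 19.96, 15.3, 9.47 and 12.02 CPM, all lower in both *Ets1* eKO libraries, and ribosomal protein UMIs 21.3%, 20.9%, 23.0% and 21.6%, higher in both, and their part in the result was not tested.

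In mEndo-like cells *S100a6* was low, at 13.8, 18.4, 25.7 and 14.5 CPM, and the groups overlapped (log2 fold change 0.37, edgeR adjusted p = 0.457). Without *Ets1* eKO replicate 2 the value was 0.72 (edgeR adjusted p = 0.0208) and without *Ets1* eKO replicate 1 it was -0.082. In vEndo-like cells it held 380, 378, 505 and 306 CPM, again with overlap (log2 fold change 0.15, edgeR adjusted p = 0.850). The difference between cvEC-like and vEndo-like cells was 0.76 (SE 0.18, edgeR adjusted p = 0.0915), with 0.326% of genes called in that pair. Against cardiomyocyte-like cells it was 0.28 (edgeR adjusted p = 0.773), and against fibroblast-like cells 0.60 (edgeR adjusted p = 0.194). Cardiomyocyte-like cells held 1.525, 1.608, 2.105 and 2.292 CPM (log2 fold change 0.61, edgeR adjusted p = 0.393). Mural-like cells, not tested, held 38.3, 38.2, 120 and 86.2 CPM. Neither class had overlap, unlike the other classes outside endothelium.

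*S100a11* (ENSMUSG00000027907), the partner of annexin A1, was high in every endothelial class. Its levels in mEndo-like cells were 544, 505, 671 and 695 CPM. The groups did not overlap, and the log2 fold change of 0.43 (SE 0.13, edgeR adjusted p = 0.115) did not pass in edgeR, while DESeq2 gave an adjusted p of 0.0483 and edgeR without *Ets1* eKO replicate 1 gave 0.0134, in a range up to 0.465 over the alternatives. In vEndo-like cells it stood at 448, 380, 594 and 607 CPM (log2 fold change 0.58, SE 0.17, edgeR adjusted p = 0.199). In cvEC-like cells it stood at 677, 658, 835 and 739 CPM (log2 fold change 0.32, edgeR adjusted p = 0.391). All 3 point estimates were thus above 0 and well under that of *Lgals1* in mEndo-like and cvEC-like cells. In vEndo-like cells the estimate of *S100a11* lay close to that of *Lgals1* (0.72, SE 0.17). Its mean thinned share there was 44.8% in control and 65.3% in eKO hearts (exact permutation p = 0.33). For *Lgals1* these shares were 37.95% and 52.8%.

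*S100a10* (ENSMUSG00000041959), the partner of annexin A2, was highest in vEndo-like (1016 ± 147 CPM, SD, n = 4), cvEC-like (818 ± 99.7 CPM) and epicardial-like cells (816 ± 73.7 CPM), which overlapped as neighbours. In the controls alone epicardial-like cells (mean 862 CPM) lay above cvEC-like cells (mean 754 CPM) without overlap. The log2 fold change of *S100a10* was 0.25 in mEndo-like cells (edgeR adjusted p = 0.380), 0.31 in cvEC-like cells (edgeR adjusted p = 0.444) and 0.32 in vEndo-like cells (edgeR adjusted p = 0.536). Without *Ets1* eKO replicate 1 the value in cvEC-like cells was 0.43 (edgeR adjusted p = 0.0408), and without cycling cells it was 0.041 (edgeR adjusted p = 0.988), the ends of its range.

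*S100a13* (ENSMUSG00000042312), known for its part in the export of proteins that lack a signal peptide, had the opposite sign. In mEndo-like cells both *Ets1* eKO libraries lay below the controls (means 132 ± 3.71 and 103 ± 18.4 CPM, SD, n = 2; 1086, 808, 799 and 646 UMIs), with a log2 fold change of -0.31 (SE 0.14, edgeR adjusted p = 0.248). Without *Ets1* eKO replicate 1 it was -0.49 (edgeR adjusted p = 0.00967) and without *Ets1* eKO replicate 2 it was -0.145 (edgeR adjusted p = 0.670), the ends of its range over 14 alternatives. Its effect in mEndo-like cells was below that in cardiomyocyte-like cells by -0.49 (SE 0.12, edgeR adjusted p = 0.0368), a call lost with total count scaling at a value of -0.43 (edgeR adjusted p = 0.0842). cvEC-like cells had its highest level, 198 ± 23.8 CPM (SD, n = 4).

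**Figure D4:**
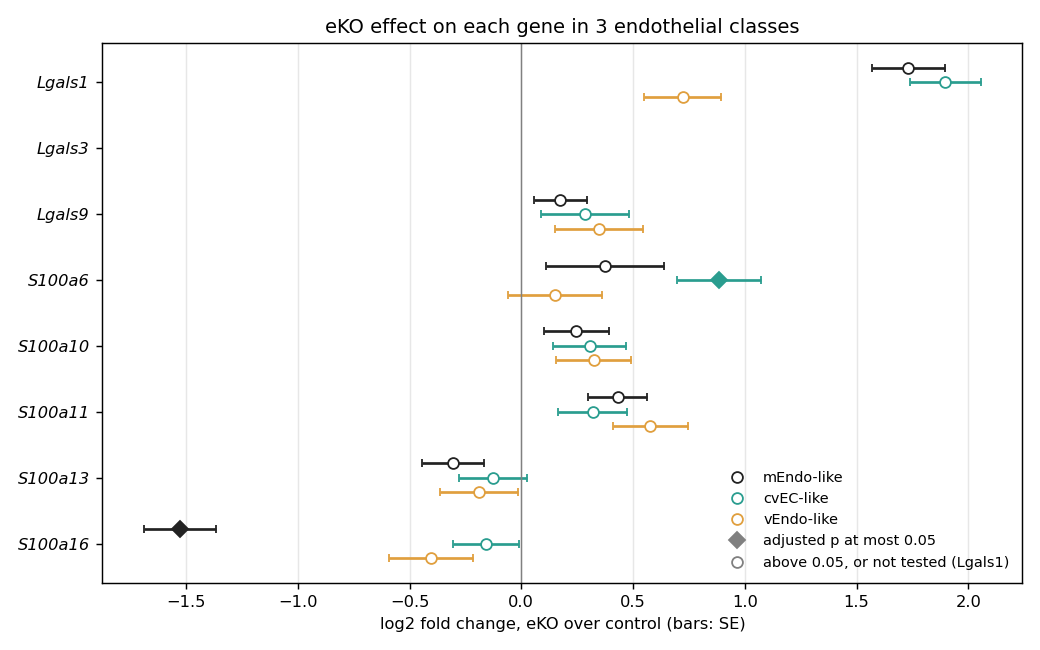
Log2 fold change of *Ets1* eKO over control with its SE in the 3 endothelial classes; filled diamonds are at an edgeR adjusted p of at most 0.05, and *Lgals1* was not tested. *Lgals1* stands at 1.73, 1.90 and 0.72, *S100a16* in mEndo-like cells at -1.53, and the other values lie between -0.41 and 0.88; *Lgals3* was too low for a value.

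Counted over the 7 members besides *Lgals1*, 6 passed the filter on low counts in each endothelial class. In mEndo-like cells 1 of these 6 was called by edgeR, *S100a16*, lower in *Ets1* eKO, where 329 of 12831 genes (2.56%) were called. In cvEC-like cells 1 was called, *S100a6*, higher, where 1.01% of genes were called. In vEndo-like cells 0 of the 6 were called by edgeR or DESeq2, 2 had an unadjusted p under 0.05, as did 951 of all 9077 genes, and 0.419% of genes were called. Under 0.05 unadjusted were 3 of the 6 and 2575 of 12831 genes in mEndo-like cells, and 1 of the 6 and 1487 of 11151 genes in cvEC-like cells. Calls gained with a library left out came in fits that called more genes: without *Ets1* eKO replicate 1, 1751 of 13239 in mEndo-like and 787 of 11768 in cvEC-like cells, and without *Ets1* eKO replicate 2, 923 of 13208 and 363 of 11347. The median log2 fold change of the 6 was 0.21, 0.29 and 0.24 in these classes in turn, against 0.0015, 0.015 and 0.013 over all genes tested. The 7 members besides *Lgals1* are 5800 to 21973 bases long, and genes under 20 kb had medians of 0.11, 0.12 and 0.13.

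Outside endothelium edgeR and DESeq2 called 0 members in each class tested. Mural-like cells were not tested. There *Lgals1* and *S100a6* were higher and *S100a13* lower in both *Ets1* eKO libraries, and the groups of the other members overlapped. In cardiomyocyte-like cells all 8 were tested, 4 had an unadjusted p under 0.05, as did 2013 of all 15937 genes, and 0.00627% of genes were called. Without *Ets1* eKO replicate 1, where 2529 of 16389 genes were called, the members called were 2, *Lgals1* and *S100a10* (log2 fold change 0.58, edgeR adjusted p = 0.00123). With all libraries *S100a10* stood at 0.37 there (edgeR adjusted p = 0.393), and over the alternatives it ran from 0.14 to 0.58 (adjusted p up to 0.973 in edgeR). In immune-like cells 3 of 7 members had an unadjusted p under 0.05, as did 475 of all 8315 genes, and 0.0241% of genes were called. *S100a6* was there called without *Ets1* eKO replicate 2 (log2 fold change 1.26, edgeR adjusted p = 0.00219; 49 of 8639 genes called), with a range of -0.065 to 1.31 over the alternatives, from 75.0, 42.8, 144 and 64.9 CPM. In fibroblast-like, cushion-like and Tcf21-type cells 0 of 7, 6 and 6 had an unadjusted p under 0.05, where 0.0210%, 0.646% and 0% of genes were called. In epicardial-like cells 1 of 6, *Lgals1*, had an unadjusted p under 0.05, as did 540 of all 7469 genes, where 0% of genes were called.

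In the class pairs without mEndo-like cells, edgeR called 0 of the 6 or 7 members tested for a difference of effect. These were cvEC-like against vEndo-like cells (0.326% of genes called, 2 members with an unadjusted p under 0.05), cvEC-like against cardiomyocyte-like (0.755%, 2 members) and fibroblast-like cells (1.35%, 1 member), and vEndo-like against the same classes (0.421%, 3 members, and 0.412%, 1 member). DESeq2 was not run on these pairs.

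A list of 8 other galectin genes in the matrices counts *Lgals3bp*, a gene for a galectin-binding protein that is no galectin. Of these, 4, 3 and 3 were tested in mEndo-like cells, cvEC-like cells and vEndo-like cells in turn. Among these classes edgeR called *Lgals7* in vEndo-like cells alone, where 0.419% of genes were called. In the other 2 classes edgeR and DESeq2 called 0, with 2 (1 of them *Lgals3bp*) and 1 at an unadjusted p under 0.05. So were 2575 of all 12831 genes in mEndo-like and 1487 of all 11151 genes in cvEC-like cells. *Lgals3bp* was among those tested in mEndo-like and cvEC-like cells. *Lgals7* encodes a galectin best known from stratified epithelium. In vEndo-like cells it stood at 37.1, 69.9, 307 and 185 CPM, from 41, 67, 270 and 117 UMIs. Both *Ets1* eKO libraries were far above the controls, with a log2 fold change of 2.28 (SE 0.28, edgeR adjusted p = 0.00117), rank 9 from the highest of 9077 genes. In vEndo-like cells the cardiomyocyte list summed to 821, 641, 993 and 1231 CPM, the fibroblast list to 910, 801, 733 and 759 CPM, and mitochondrial UMIs were 3.27%, 3.39%, 2.52% and 3.05%. The epicardial list summed to 5.42, 6.26, 13.6 and 9.47 CPM, the immune list to 5.42, 6.26, 12.5 and 17.4 CPM and the erythroid list to 176, 85.6, 191 and 185 CPM, and ribosomal protein UMIs were 16.2%, 16.5%, 17.1% and 16.8%, all higher in both *Ets1* eKO libraries. The part of these values in the result was not tested. In mEndo-like cells it was low, at 17, 31, 69 and 50 UMIs (2.10, 4.95, 10.0 and 6.97 CPM), with both *Ets1* eKO libraries above the controls (log2 fold change 1.36, edgeR adjusted p = 0.0889), and in cvEC-like cells it had 6, 0, 2 and 3 UMIs. In epicardial-like cells it held 194, 237, 165 and 114 CPM.

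A list of 13 other S100 genes counts *S100pbp*, a gene for an S100P-binding protein that is no S100 protein. Of these, 3, 2 and 3 were tested in the mEndo-like, cvEC-like and vEndo-like class, *S100pbp* in each. There edgeR and DESeq2 called 0, with 0 at an unadjusted p under 0.05. Of all genes 2575 of 12831, 1487 of 11151 and 951 of 9077 were under it in these classes in turn. *S100a8*, a calgranulin of neutrophils and monocytes named here after its values were seen, was called in immune-like cells, with 1, 1, 250 and 70 UMIs (log2 fold change 6.68, SE 0.75, edgeR adjusted p = 0.000367). In that class 2 of 8315 genes were called. *S100a9*, of the same list and also named after its values were seen, had 0, 1, 12 and 23 UMIs there. Its log2 fold change was 4.40 (SE 0.95, edgeR adjusted p = 0.352). The median over the 5 genes of the list tested in that class was -0.14. Which kinds of leukocyte each library held was not tested. The call of *S100a8* was lost with cycling cells left out, at a larger value (log2 fold change 9.14, edgeR adjusted p = 0.113). Over 12 alternatives the value ran from 2.95 to 9.14. Mitochondrial UMIs of immune-like cells were 3.175%, 3.564%, 2.798% and 2.915%, lower in both *Ets1* eKO libraries. Ribosomal protein UMIs were 19.2%, 18.6%, 21.8% and 20.7%, higher in both. The part of these values in the result was not tested.

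A list of 12 genes held annexins as partners of the S100 dimers and *Ahnak*, which is no annexin. It gave 9, 9 and 10 tested genes in the same 3 classes, *Ahnak* in each. Of these edgeR and DESeq2 called 0, with 3, 1 and 2 at an unadjusted p under 0.05. So were 2575 of all 12831 genes in mEndo-like, 1487 of 11151 in cvEC-like and 951 of 9077 in vEndo-like cells. The median log2 fold change of the list was 0.029, 0.12 and 0.058.

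Among 9 genes for glycan enzymes and binding partners of galectins, *Mgat5* fell in mEndo-like cells, where 2.56% of genes were called. It encodes the enzyme that starts the beta-1,6 branch of N-glycans, which carry galectin ligands. In mEndo-like cells it stood at 50.7, 57.3, 24.3 and 23.7 CPM, with both *Ets1* eKO libraries below the controls (log2 fold change -1.12, SE 0.14, edgeR adjusted p = 0.00351). In cvEC-like cells it was 77.5, 107, 75.2 and 62.2 CPM (log2 fold change -0.34, edgeR adjusted p = 0.412) and in vEndo-like cells 78.6, 93.9, 50.01 and 53.6 CPM (log2 fold change -0.69, edgeR adjusted p = 0.255). The other 6 tested in mEndo-like cells did not pass in edgeR. Of the 7 tested there, DESeq2 called 2, as it did 339 of all 12831 genes, and 4 had an unadjusted p under 0.05, as did 2575 of all genes.

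The genes most like *Lgals1* were taken by Pearson's r of log2(CPM + 1) over 28 values, 7 classes in 4 libraries, among 5974 genes. They were *Psd3* (r = 0.75), *Selenos* (r = 0.74), *Gng10* (r = 0.73), *Nol12* (r = 0.68) and *Ube2v2* (r = 0.68). *Nol12* lies 4.5 kb from *Lgals1*, and its log2 fold change was 0.23 in mEndo-like cells (edgeR adjusted p = 0.438) and 0.56 in cvEC-like cells (edgeR adjusted p = 0.174). The values share libraries and depth, so no p is given. *Psd3* averaged 755 CPM in fibroblast-like cells, and in mEndo-like cells *Psd3* had a log2 fold change of -0.003.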

How the data were processed

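The authors deposited whole UMI counts per gene and barcode, made with Cell Ranger 7.1.0 on mm10 per the labels, with cells already called, for 4 libraries, which are the replicates. Members and lists were chosen with earlier results of these data known.

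Cells with 200 to 7000 genes and at most 20% mitochondrial, 35% ribosomal protein and 2% hemoglobin UMIs were kept (41563 of 45551). Simulated doublets (2 per cell, 90 neighbours) gave scores, of which the highest were removed at 0.8% per 1000 cells (3650), leaving 37913. A cell took the marker list with the highest scaled value if this was at least 0.2, at least 3 markers had a UMI and the next list reached at most 0.5 of it; 30869 cells got a class. Endothelial classes then needed at least 3 UMIs of their own list. Cells within 10% of the limits on the lists count as near a boundary. Background RNA was not removed. A class was used with at least 50 cells in every library, which left out erythroid cells. Mural-like cells met this limit, with 106, 67, 62 and 50 cells. They were not among the classes planned for the test and were only described. Alternatives that drop cells were fitted on fewer.

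UMIs of each class were added up within each library. The sums went to edgeR 4.0.16 (quasi-likelihood test, scaling by TMM, filterByExpr, Benjamini-Hochberg over all genes, 0.05) in R 4.3.3. Differences between classes used stacked sums with library as a block. *Lgals1* got no test in or between endothelial classes. Tested on simulated data, the edgeR step made more false calls than its threshold allows in most classes. Named genes were *Ets1*, the members, genes of 4 lists past the threshold in an endothelial class, and the 5 most like *Lgals1*. *S100a8*, *S100a9*, *Lgals3bp*, *S100pbp* and *Ahnak* were named outside this rule, after their values were seen. Positions came from GENCODE (32158 of 32285 IDs matched). Other choices tried were total count scaling, DESeq2 1.42.0, dropping the filter on low counts, a replicate block, each library left out, no doublets removed, a stricter cell filter (1000 genes, 10% mitochondrial), Leiden clusters (igraph 0.11.9), a stricter gate (0.4, 0.25, 5 UMIs), cycling cells left out, sex as a term (parts of 1 library as separate units), and 1000 or all UMIs for shares. The seed was 0, in Python 3.11.15 (scikit-learn 1.9.0, scipy 1.17.1, matplotlib 3.10.9, pandas 2.3.3, numpy 2.4.6).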

Additional observations from a re-analysis of the deposited data

Results flagged for a closer look

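The effect of *Ets1* eKO on *S100a16* differed between classes by a test of the difference itself. On the log2 scale, the effect in mEndo-like cells minus that in another class was -1.34 for cvEC-like, -1.13 for vEndo-like, -1.40 for cardiomyocyte-like and -1.51 for fibroblast-like cells. The last 2 classes hold little *S100a16*, so that these differences may be set partly against background RNA. For *S100a13* the effect in mEndo-like minus cardiomyocyte-like cells was -0.49.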

How the results depend on the processing

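*S100a16* in mEndo-like cells kept its call under all 14 alternatives, DESeq2 among them (log2 fold change -1.75 to -1.34). So did *Mgat5* there (-1.29 to -0.96) and *Lgals7* in vEndo-like cells (1.84 to 3.50). With 1 library left out, the lone library of a group is taken to vary like the others.

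Members called besides *Lgals1* in mEndo-like cells, 1 in the report, were 2 with DESeq2, 2 with sex as a term and 1 to 3 with a library left out. In cvEC-like cells, also 1, they were 0 with DESeq2, 0 with total count scaling, 0 with no doublets removed, 0 with cycling cells left out, 0 with clusters and 0 to 2 with a library left out. With a library left out they were 0 to 2 in cardiomyocyte-like and 0 to 1 in immune-like cells. Members whose effect differed were 1 with no filter on low counts for cvEC-like minus vEndo-like, cardiomyocyte-like and fibroblast-like cells, 0 in the report, and 1 with total count scaling for mEndo-like minus cardiomyocyte-like cells, 2 in the report.

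The log2 fold change of *Lgals1* ran from 1.56 to 1.95 in mEndo-like cells with a library left out. In cvEC-like cells it was 1.99 with the stricter gate and 1.51 without cycling cells, and in vEndo-like cells 0.33, 0.97 and, with sex as a term, 0.495. In cushion-like cells it was -0.034 with total count scaling, -0.18 with the stricter gate, -0.0080 without cycling cells and -0.047 to 0.12 with a library left out. In immune-like cells it was -0.0010 with DESeq2, -0.036 with total count scaling, -0.042 with no doublets removed, -0.072 with sex as a term and -0.30 to 0.39 with a library left out.

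Other signs turned as well. *S100a6* was -0.082 to 0.72 in mEndo-like and -0.27 to 0.46 in vEndo-like cells with a library left out, -0.15 in vEndo-like cells without cycling cells and -0.065 in immune-like cells with the stricter gate. Over all 14 alternatives its value in mEndo-like cells reached 0.95. *Lgals9* was -0.031 to 0.55 in cvEC-like cells with a library left out, -0.040 without cycling cells, and -0.020 in vEndo-like cells with the stricter gate. *S100a13* in cvEC-like cells was -0.28 to 0.018 with a library left out and 0.052 with sex as a term, and *S100a16* in vEndo-like cells 0.43 with the stricter gate. The cause was not tested. Some of these fits had few cells in a library: the stricter gate left 23 to 24 vEndo-like cells, and as few as 16 cushion-like and 10 epicardial-like cells, and leaving out cycling cells left 34 cvEC-like cells in control replicate 2.

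The difference in share, in percentage points, was 29.6 at 1000 UMIs and 22.9 with all UMIs for *Lgals1* in mEndo-like cells, 22.6 with all UMIs in cvEC-like cells, and 7.12 and 1.91 in vEndo-like cells. For *S100a16* in mEndo-like cells it was -4.47 and -24.1, and for *S100a6* in cvEC-like cells -0.12 with all UMIs.

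The libraries share only a replicate number. Same-numbered libraries deviated with correlations from -0.186 (cardiomyocyte-like) to 0 (mEndo-like), and with the replicate number as a block the count of members called was unchanged in all 9 classes tested (1 for mEndo-like, 1 for cvEC-like, 0 for each other class). Clusters gave no cushion-like or Tcf21-type cells, and *S100a8* gave no value with the stricter gate or with sex as a term. With 2 libraries in each group, no library could be checked as an outlier, a call rests on 4 values, and genes with few UMIs, such as *Lgals3* in endothelium, could not be read.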
